A study of Caenorhabditis elegans with 2 samples.

Results

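The regions described here are 205 peaks of CEBP-1-GFP chromatin immunoprecipitation (ChIP-seq) that lie at genes for small nuclear and small nucleolar RNAs. They were taken from the 10000 pooled peaks with the highest signal value. A peak was kept where its summit lay within 500 bp of an annotated snRNA or snoRNA gene and more than 300 bp from any tRNA gene. The tRNA limit removed 1 peak, nearest to M163.14 among small RNA genes, whose summit lay 45 bp from a tRNA gene. By nearest gene, 38 members belonged to snRNA genes and 167 to snoRNA genes. They fell in 188 intervals and named 172 different genes, since a gene can have more than 1 summit.

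The animals were Caenorhabditis elegans of strain OP563, unc-119(tm4063) III with the transgene wgIs563, which carries CEBP-1 fused at its C terminus to GFP-FLAG. CEBP-1 belongs to the C/EBP proteins, which bind DNA through a basic leucine zipper. Whole young adults of both sexes were pooled 63 hours after synchronization as starved L1 larvae, and their chromatin was sonicated and precipitated with an antibody against GFP. There were 2 biological replicates, numbered 3 and 7, both of this 1 strain and stage, so no test between groups is possible and no strain without the tag was analysed here. Which promoter drives the transgene is not given in the sources used here, and whole animals do not show in which cells a peak arises. Sequencing depth is unknown, since the lists come without counts, and intervals on shares cover counting error only.

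Small nuclear RNAs form the cores of the spliceosome particles, and in nematodes the spliced leader RNAs SL1 and SL2 donate the 5′ ends of many mRNAs by trans-splicing. Small nucleolar RNAs guide chemical changes in ribosomal RNA, the box C/D class directing ribose methylation and the H/ACA class pseudouridylation. Genes for snRNAs carry an upstream proximal sequence element (PSE) that recruits a dedicated complex, and are read by RNA polymerase II or III. Genes for tRNAs are read by RNA polymerase III from an A box and a B box, short sequences inside the gene that TFIIIC binds.

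Upstream of the members' genes there were recurrent letters of both kinds, and the sequences below show them for strong peaks at 5′ ends. The search patterns were written after these sequences had been seen. PSE-like letters were defined as CG, 5 bases of any kind and TGTC, and the A and B box pair as TGGNNNA followed by GTTCNA, with 35 to 60 bases from start to start. The B box letters can overlap GGTTCGA, searched separately further on. Both were sought on the gene's own strand, from 120 bases upstream to 20 bases downstream of its annotated 5′ end. The sequences run 5′ to 3′ on the gene's strand from 90 bases before the annotated 5′ end to 30 bases into the gene, read from the RefSeq WBcel235 assembly. Capitals mark the PSE-like letters in the first 8 sequences and the A and B box letters in the last 4.
M163.13 (snRNA, chrX:14476777-14476896, plus strand): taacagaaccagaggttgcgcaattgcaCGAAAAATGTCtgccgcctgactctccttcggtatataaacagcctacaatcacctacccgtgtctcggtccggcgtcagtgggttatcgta
sls-2.1 (snRNA, chrII:5844775-5844894, plus strand): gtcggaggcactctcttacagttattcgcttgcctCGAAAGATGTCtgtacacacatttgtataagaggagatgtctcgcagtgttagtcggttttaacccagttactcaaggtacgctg
sup-6 (snRNA, chrII:12944938-12945057, minus strand): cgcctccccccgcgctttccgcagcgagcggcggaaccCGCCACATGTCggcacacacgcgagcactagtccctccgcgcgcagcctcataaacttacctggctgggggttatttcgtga
sls-2.8 (snRNA, chrIII:12250375-12250494, plus strand): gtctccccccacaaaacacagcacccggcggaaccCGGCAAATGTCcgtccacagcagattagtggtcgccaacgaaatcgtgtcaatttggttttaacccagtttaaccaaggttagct
ZK994.7 (snoRNA, chrV:8500489-8500608, plus strand): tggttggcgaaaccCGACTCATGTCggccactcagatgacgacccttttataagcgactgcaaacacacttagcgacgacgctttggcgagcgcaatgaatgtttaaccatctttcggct
K02C4.7 (snoRNA, chrII:8091619-8091738, plus strand): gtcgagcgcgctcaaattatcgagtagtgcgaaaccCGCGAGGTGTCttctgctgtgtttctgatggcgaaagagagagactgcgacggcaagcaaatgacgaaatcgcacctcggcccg
Y53F4B.47 (snoRNA, chrII:15025864-15025983, minus strand): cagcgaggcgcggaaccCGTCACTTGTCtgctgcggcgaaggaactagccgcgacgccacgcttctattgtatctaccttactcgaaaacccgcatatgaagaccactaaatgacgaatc
D2021.6 (snoRNA, chrX:8546175-8546294, minus strand): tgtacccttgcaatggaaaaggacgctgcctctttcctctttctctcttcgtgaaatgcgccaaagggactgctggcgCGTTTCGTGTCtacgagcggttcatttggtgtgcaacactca
W03C9.9 (snoRNA, chrII:11960808-11960927, plus strand): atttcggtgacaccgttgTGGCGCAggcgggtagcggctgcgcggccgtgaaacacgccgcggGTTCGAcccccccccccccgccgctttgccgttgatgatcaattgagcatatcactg
T03F7.8 (snoRNA, chrV:11314168-11314287, plus strand): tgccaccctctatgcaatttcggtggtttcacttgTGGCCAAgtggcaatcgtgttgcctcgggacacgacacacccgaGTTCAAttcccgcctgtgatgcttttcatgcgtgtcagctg
T06C12.16 (snoRNA, chrV:15873897-15874016, minus strand): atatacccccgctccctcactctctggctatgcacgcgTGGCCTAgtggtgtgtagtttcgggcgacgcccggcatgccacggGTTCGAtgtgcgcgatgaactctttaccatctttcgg
Y75B12B.12 (snoRNA, chrV:15191064-15191183, minus strand): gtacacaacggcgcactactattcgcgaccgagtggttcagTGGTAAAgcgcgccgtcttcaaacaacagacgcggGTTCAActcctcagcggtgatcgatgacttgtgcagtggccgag

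Among the 8 sequences with PSE-like letters, 7 have them well upstream of the gene, while in D2021.6 they start 12 bases before the annotated 5′ end. The 4 sequences with the box pair carry upstream of the snoRNA the letters that tRNA genes carry inside. The rule itself leaves out peaks within 300 bp of a tRNA gene. The nearest tRNA gene lay 1391 bp from the summit at W03C9.9, 98019 bp at T03F7.8, 319882 bp at T06C12.16 and 34341 bp at Y75B12B.12. Their B box letters start 27, 11, 7 and 14 bases before the snoRNA in W03C9.9, T03F7.8, T06C12.16 and Y75B12B.12. A letter match describes the sequence and shows no bound factor.

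The members had high signal values for the list. Their pooled signal had a median of 334, from 85.2 to 6269, and the median over all ranked peaks was 179. Relative signal is the signal of the strongest replicate summit within 100 bp, divided by the median over all ranked peaks matched in that replicate. The members' median relative signal was 1.82 in replicate 3 and 2.01 in replicate 7, which is 1.91 ± 0.138 (SD, n = 2), beside 1 for all ranked peaks by construction. For the 238 ranked peaks within 300 bp of a tRNA gene it was 1.28 in replicate 3 and 2.26 in replicate 7 (1.77 ± 0.693, SD, n = 2).

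Of the members, 160 of 205 (78.0%, 95% Wilson interval 71.9 to 83.2) were also in the authors' optimal list, which holds peaks passing a threshold on the irreproducible discovery rate. The background was 59.8% of all ranked peaks. All 5982 optimal peaks are the top of the pooled ranking, so this share follows from the members' signal. A summit within 100 bp among the top 10000 of both replicates was found for 134 members (65.4%, interval 58.6 to 71.5), against a background of 53.2% of all ranked peaks. That share was not compared at equal signal. Anywhere in the replicate lists, 174 members were matched in both, 19 had no summit in replicate 3, 13 had none in replicate 7, and 1 had none in either. Of the members in the optimal list, 144 of 160 were matched in both (interval 84.4 to 93.8), beside 87.8% of all optimal peaks. Of the other members, 30 of 45 were matched in both (66.7%), beside 66.2% of ranked peaks outside the optimal list. Within each of these sets, members were thus matched about as often as ranked peaks in general.

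Member summits gathered at the starts of the small RNA genes. The median summit lay 24 bp upstream of the annotated 5′ end of the nearest snRNA or snoRNA gene, with quartiles from 75 bp upstream to 139 bp downstream. This direction depends on the library: applied to the list of replicate 7 alone, the rule gave a median of 13.0 bp, downstream, and applied to that of replicate 3 alone, -28.0 bp. The window called the 5′ end in what follows spans 100 bp upstream and 50 bp downstream, and in it lay 89 of 205 members (43.4%). These had a median pooled signal of 562 and a median relative signal of 2.65 ± 0.471 (SD, n = 2). Another 44 members lay farther upstream, 22 lay inside the gene and 50 beyond its 3′ end. In all, 152 members were within 200 bp of a small RNA gene, and 37 summits were inside one.

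**Figure D1:**
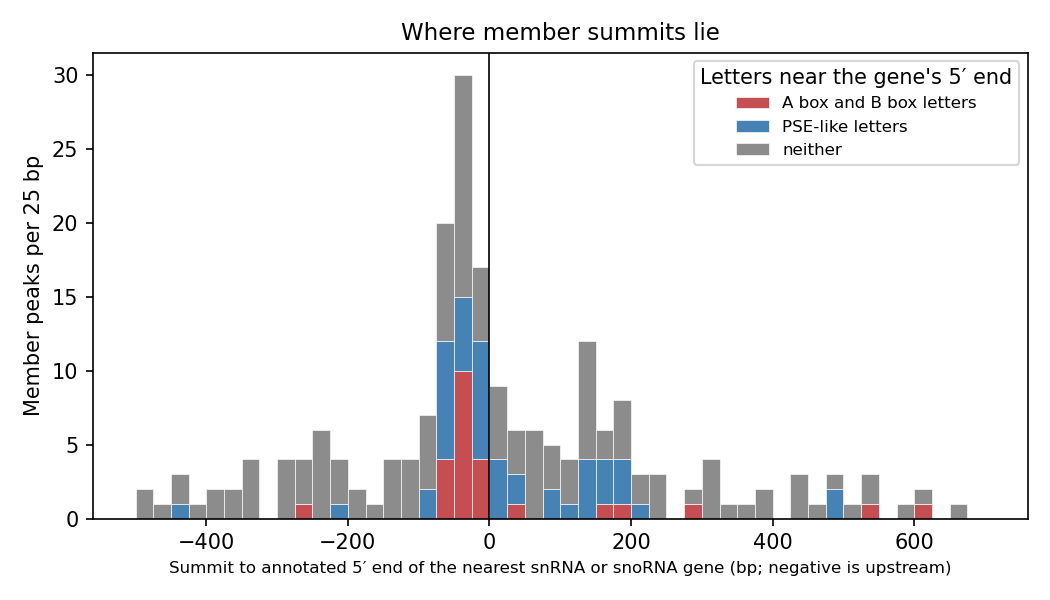
Number of member peaks (y axis, per 25 bp) by the distance of the summit from the annotated 5′ end of the nearest snRNA or snoRNA gene (x axis, bp, negative is upstream), coloured by the letters found near that 5′ end. Bars are stacked. The tallest stand just upstream of the 5′ end, and 19 members of the A and B box class lie in the 5′ end window.

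Most small RNA genes had no ranked peak at their start. A member lay within 500 bp of 148 of 346 snoRNA genes (42.8%) and 30 of 129 snRNA genes (23.3%), beside 17.1% of all annotated genes with a ranked summit that near. At the 5′ end the counts were 72 snoRNA genes (20.8%, interval 16.9 to 25.4) and 19 snRNA genes (14.7%, interval 9.64 to 21.9), against a background of 3.48% of all genes. The same share was 30.2% of tRNA genes, 4.30% of protein-coding genes, 3.45% of miRNA genes and 0.215% of piRNA genes. These shares use annotated 5′ ends, and whether those mark the start of transcription equally well in each class was not examined. Chromosome X held 8 members for 36 snRNA and snoRNA genes, and chromosome II 45 members for 87. The share of all ranked peaks on each chromosome is not set beside these counts, so they show no preference for a chromosome.

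Among snoRNA genes, those with either kind of letters had a peak at the 5′ end more often than those without. Of the 35 snoRNA genes with the A and B box pair, 20 had a member there (57.1%, interval 40.9 to 72.0). Of the 46 snoRNA genes with PSE-like letters it was 19 (41.3%, interval 28.3 to 55.7), and of the 265 with neither it was 33 (12.5%, interval 9.01 to 17.0). Among snRNA genes the counts were 11 of 49 with PSE-like letters (22.4%, interval 13.0 to 35.9) and 8 of 79 with neither (10.1%, interval 5.22 to 18.7), whose intervals overlap, and the 1 snRNA gene with the box pair had none. The 49 genes include 10 sls-1 copies without a member, at which missing peaks are uncertain, as described below. The 11 count a single peak for both sup-39 and mir-1831. No snRNA or snoRNA gene had both kinds of letters. Since the patterns were written from members' sequences, these shares describe the members and support no test.

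**Figure D2:**
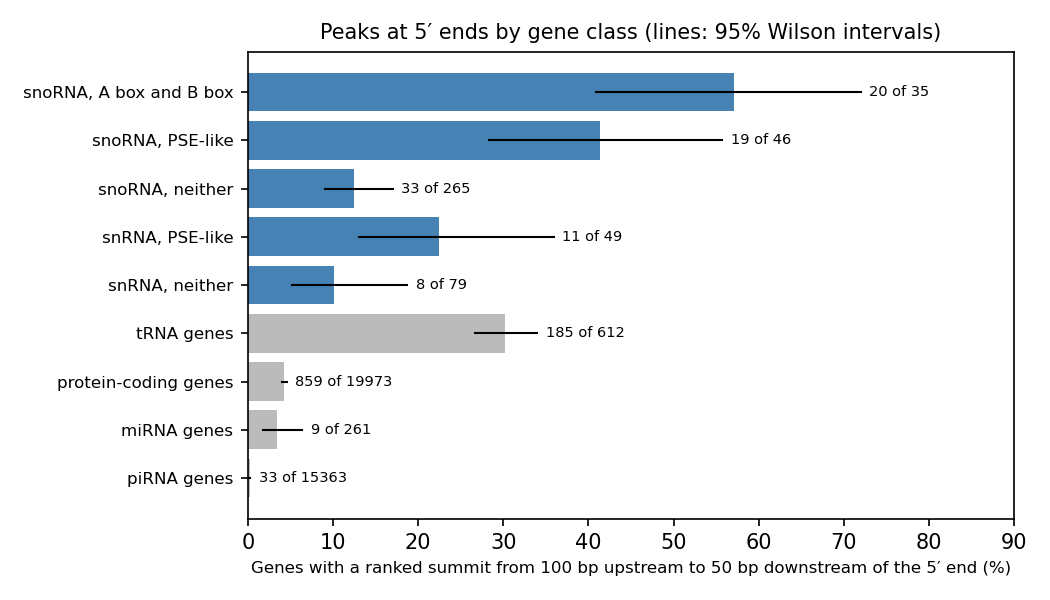
Percentage of genes with a ranked summit at the 5′ end (x axis), with 95% Wilson intervals as lines, for snoRNA and snRNA genes by letters (blue) and for other gene classes (grey). The snoRNA genes with the A and B box pair are highest at 57.1%, above tRNA genes at 30.2%, and snRNA and snoRNA genes with neither kind of letters stand at 10.1% and 12.5%.

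Positions fell in a narrow band for the PSE-like letters. The genes with these letters include snRNA genes of like sequence, among them 12 sls-2 and 10 sls-1 genes, and are not independent. The PSE-like letters began from 75 to 48 bases upstream of the 5′ end in 85 of the 95 genes that had them, with a median of 54 bases. The median start was 55 bases upstream in the 30 of these genes with a member at the 5′ end and 54 bases in the 65 genes without, so the positions overlapped. The A box letters began a median of 58 bases and the B box letters a median of 14 bases upstream, 44 bases apart, in the 36 genes with the pair. In the same window PSE-like letters were found at 1.63% of 19973 protein-coding genes and the box pair at 0.546%. Where such letters occurred there, a ranked summit lay at the 5′ end of 15 of 326 protein-coding genes (4.60%) with PSE-like letters and 5 of 109 (4.59%) with the box pair, close to the 4.30% of all protein-coding genes.

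**Figure D3:**
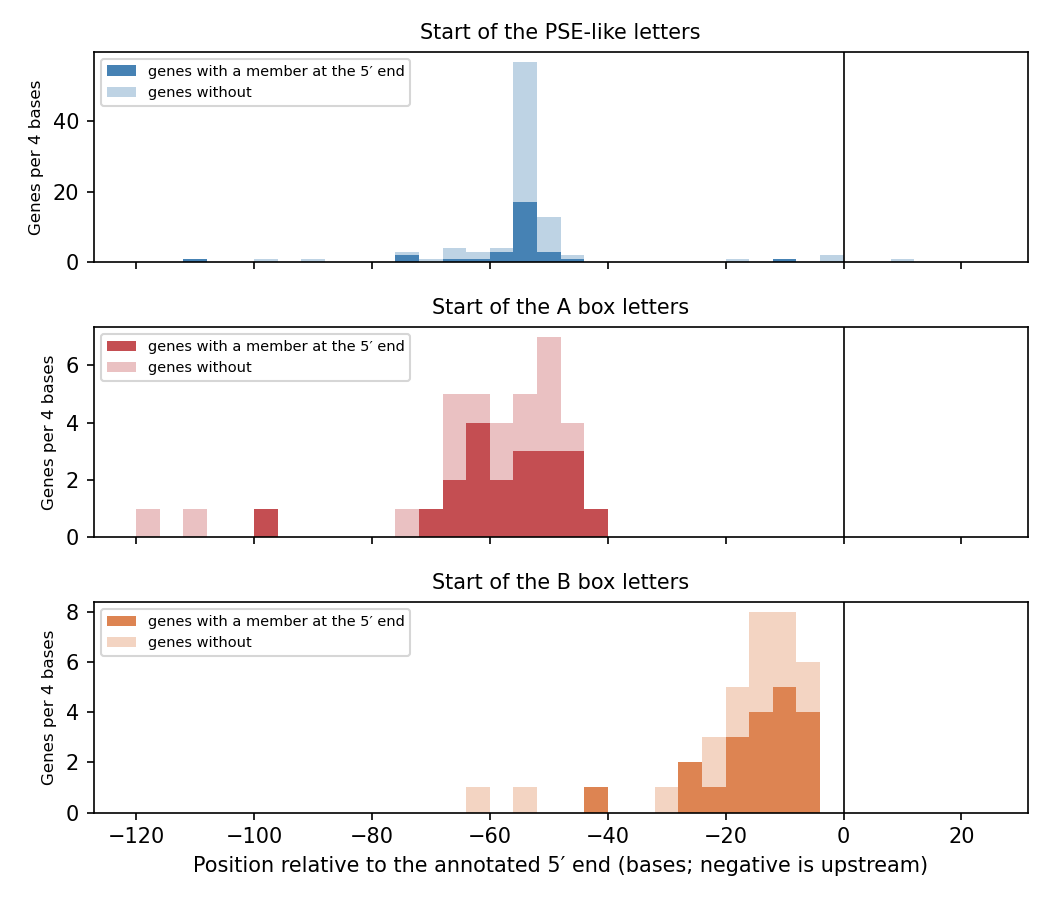
Number of snRNA and snoRNA genes (y axis, per 4 bases) by the start of the PSE-like, A box and B box letters relative to the annotated 5′ end (x axis, bases), with genes that have a member at the 5′ end in full colour and those without in pale colour. The PSE-like letters pile up at a median of 54 bases upstream, and the A and B box letters at medians of 58 and 14 bases.

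Counted around summits instead of genes, on both strands within 100 bp, PSE-like letters were found at 42 members (20.5%, interval 15.5 to 26.5), against a background of 7.32% of all ranked peaks. They were at 8.29% of windows of equal width centred 300 bp from the members' summits. The box pair was found at 24 members (11.7%, interval 7.99 to 16.8), against a background of 4.18% of ranked peaks and 3.66% of the members' flanking windows. Peaks near tRNA genes held the box pair in 141 of 238 cases (59.2%), which is the known structure of tRNA genes. Both patterns came from members' sequences, so the members' shares around summits are also a description and support no test.

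The letter classes at 5′ ends also differed in the balance of the replicates. The ratio used is log2 of the relative signal in replicate 7 over that in replicate 3, for members with a summit in both. At 5′ ends with the box pair, 17 of 17 members were higher in replicate 7, with a median ratio of 0.73 and a range of 0.01 to 2.70. At 5′ ends with PSE-like letters, 4 of 27 were higher in replicate 7, with a median of -0.71 and quartiles of -0.90 and -0.31. The background was 45.0% of all matched ranked peaks higher in replicate 7, with a median of -0.12 and quartiles of -0.73 and 0.56. Peaks near tRNA genes were higher in replicate 7 in 167 of 192 cases (87.0%), with a median of 0.65. Position moved with the ratio too. Members farther upstream, 41 of 44 with neither kind of letters, had a median of -0.71 with 11 of 35 higher in replicate 7, and members beyond the 3′ end a median of 0.38 with 30 of 44. A lean of this size was thus not particular to the letters. With 1 library on each side of the ratio this describes these libraries and was not tested.

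Individual members show the size of this difference. W03C9.9, a snoRNA gene with box C and D letters, had a relative signal of 4.96 in replicate 3 and 11.8 in replicate 7. T03F7.8, inside cutl-18 on the opposite strand, had 4.31 in replicate 3 and 10.4 in replicate 7. Y75B12B.12 had 2.83 in replicate 3 and 7.50 in replicate 7. All 3 were more than 2 times as strong in replicate 7, while Y38F2AR.14, the lowest of the class, had 3.24 in replicate 3 and 3.26 in replicate 7. On the PSE-like side, the SL2 RNA gene sls-2.1 had 14.4 in replicate 3 and 7.38 in replicate 7. C52E4.8, an snRNA gene whose peak lies in the promoter of snr-4, a spliceosomal Sm protein gene, had 5.14 in replicate 3 and 2.58 in replicate 7. ZK994.7, a snoRNA gene inside the peroxidasin gene pxn-1, was 1 of the 4 that went the other way, with 7.90 in replicate 3 and 13.6 in replicate 7.

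**Figure D4:**
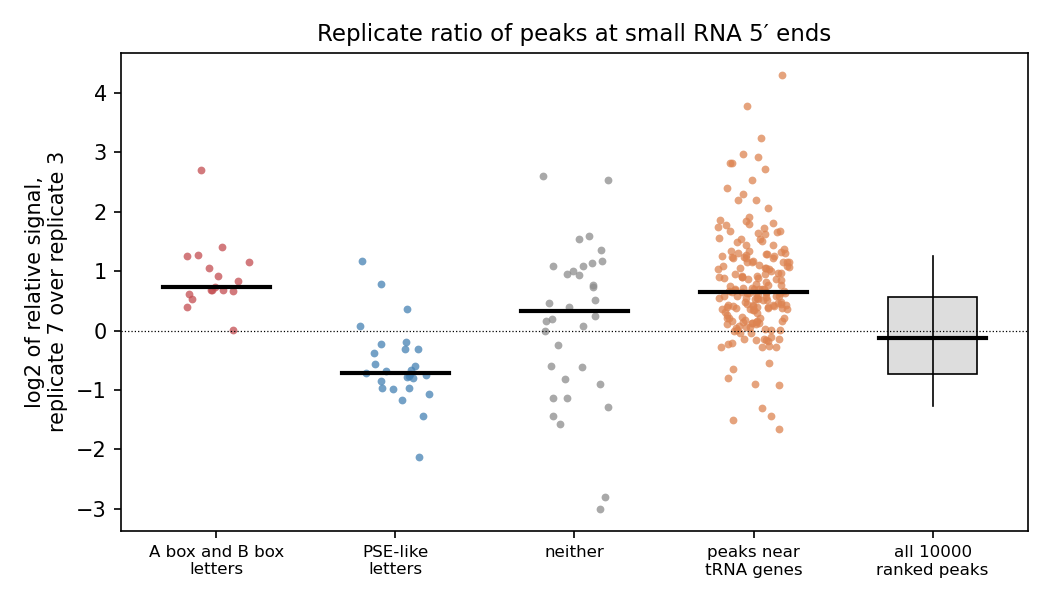
log2 ratio of relative signal in replicate 7 over replicate 3 (y axis) for members at 5′ ends with the A and B box pair, with PSE-like letters and with neither, then for peaks near tRNA genes and for all ranked peaks. Points are peaks, thick lines medians, and the box spans quartiles with whiskers at the 10th and 90th percentiles. Every point of the box pair class is above 0, most PSE-like points are below, and members with neither spread over both sides.

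GC content and promoter overlap were also measured for the classes. The median GC content within 50 bp of the summit was 56.4% for the box pair, 54.5% for PSE-like letters (quartiles 47.5 and 57.4), 50.5% for members at 5′ ends with neither, 49.5% for peaks near tRNA genes and 42.6% for all ranked peaks. A protein-coding promoter, 1000 bp upstream to 200 bp downstream of a 5′ end, held 4 of the 19 box pair members at 5′ ends (21.1%, interval 8.51 to 43.3), 10 of the 29 PSE-like ones (34.5%, interval 19.9 to 52.7) and 12 of the 41 with neither (29.3%). The promoter intervals of the box pair and PSE-like classes overlapped, and the median GC content of the box pair lay between the PSE-like quartiles. In such promoters members had a median ratio of -0.45 over 63 matched summits, and ranked peaks -0.28. Outside them the box pair members had a median of 0.78 (14 of 14 higher in replicate 7) and the PSE-like members -0.67 (3 of 17). The part of GC content or of promoter overlap in the ratio was not tested.

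Members at 5′ ends with neither kind of letters were mixed. There were 41, with 21 of 34 matched summits higher in replicate 7 and quartiles of -0.77 and 1.06. K04D7.17, at the promoter of rack-1, a ribosome-associated scaffold gene, leaned most to replicate 3, with 1.66 in replicate 3 and 0.207 in replicate 7. C07H6.10, inside cgh-1, leaned most to replicate 7, with 0.153 in replicate 3 and 0.928 in replicate 7. With a wider pattern for the pair, TGG followed by GTTC or GCTCGA, 33 members at 5′ ends fell in that class, and 27 of 30 were higher in replicate 7. That pattern also occurred at 5.49% of protein-coding genes. With any base allowed for the first G of the PSE-like letters, 75 to 48 bases upstream, 81 of 129 snRNA genes (62.8%) had them, 16 of these with a member at the 5′ end.

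The snRNA genes were grouped by sequence at 80% identity or more. In the group of SL2 RNA genes led by sls-2.1, 11 of 15 genes had a member within 500 bp and 6 at the 5′ end. The genes sls-2.9, sls-2.10 and sls-2.11 fell outside this group and had no member. Besides sls-2.1, sls-2.8 had a relative signal of 5.36 in replicate 3 and 2.38 in replicate 7, sls-2.16 had 2.31 in replicate 3 and 1.79 in replicate 7, and sls-2.3 had 2.23 in replicate 3 and 1.40 in replicate 7. The member at sls-2.4, 82 bp inside the gene, was matched only in replicate 7, at 7.44. At sls-2.2 the stronger of 2 summits lay 99 bp inside, with 9.74 in replicate 3 and 4.19 in replicate 7. Weaker single peaks were nearest to sls-2.6, sls-2.7, sls-2.14, sls-2.15 and sls-2.18, and sls-2.16 had 2 summits, of 400 and 228 in pooled signal.

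SL1 RNA genes gave a contrast. None of the 12 sls-1 genes had a listed summit at its 5′ end, even among all 30000 pooled peaks, although 10 of them carry PSE-like letters. They include 10 copies of 98 bases that fall in 1 sequence group. How reads that match many copies were treated is not given in the sources used here, so missing peaks at these copies are uncertain.

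Among other snRNA genes, sup-6 and sup-39, known from suppressor mutations as U1 snRNA genes, each had 1 member at the 5′ end. The sup-6 peak had 7.38 in replicate 3 and 3.51 in replicate 7, and the sup-39 peak 2.04 in replicate 3 and 1.65 in replicate 7. Their sequence group held 13 genes, of which 10 have PSE-like letters and 3 had a member within 500 bp, the third being H27M09.6. The gene sup-6 lies inside F58G1.7 and sup-39 inside C15F1.5, each on its host's strand. A 22-base gene listed as mir-1831 with the biotype snRNA had the same sup-39 peak at its 5′ end and counts among the 19 snRNA genes.

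The 4 remaining groups with more than 1 gene and a member had shares around the 23.3% of all snRNA genes. The largest held 23 genes of 93 to 108 bases, and 4 had a member, at W05B2.8, F54D8.7, R07E5.16 and C28A5.7. A group of 19 genes of 185 to 187 bases had 5 with a member, led by F08G2.10, Y57G11C.35 and R05D7.6. The F08G2.10 summit lay 339 bp upstream with 3.77 in replicate 3 and 2.23 in replicate 7. Of 12 genes of 117 to 126 bases, 3 had a member, F38E11.10, F32B5.9 and Y69A2AR.36. F38E11.10, the strongest, had 5.40 in replicate 3 and 1.82 in replicate 7. C52E4.8, given above, was the only 1 of its 5 genes. For the SmY RNAs, small RNAs found with the trans-splicing machinery, a member lay within 500 bp of smy-1 and smy-2 among 12 genes. The annotation lists smy-2 as a snoRNA, and it had its member at the 5′ end with 2.02 in replicate 3 and 1.74 in replicate 7.

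The snoRNA genes were also sorted by their boxes, read from the annotated ends. Box C letters (TGATGA) in the first 25 bases with CTGA in the last 15 were found in 15 genes, of which 11 had a member within 500 bp and 9 at the 5′ end. The 3 strongest of these, W03C9.9, F55A11.10 and F30H5.4, all carry the box pair upstream. Others with a member at the 5′ end, Y74C9A.6, C08D8.3, C18A3.12, Y55F3BR.9 and C16D9.10, have PSE-like letters instead. F55A11.10 had 3.37 in replicate 3 and 5.45 in replicate 7, and F30H5.4 had 3.25 in replicate 3 and 4.69 in replicate 7. The H/ACA letters, ACA 3 bases from the end, were found in 58 genes, of which 30 had a member within 500 bp and 13 at the 5′ end. The strongest of these were Y71F9AM.7 in cogc-3, F54E7.10 in rps-12 and Y24D9A.9 in rpl-7A. The other 273 snoRNA genes had neither, and 50 of them had a member at the 5′ end.

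The letters were also set beside the host genes. A snoRNA gene with no protein-coding host had a member at the 5′ end in 33 of 130 cases (25.4%), 1 inside a host on the same strand in 33 of 183 (18.0%), and 1 on the opposite strand in 6 of 33 (18.2%). With the box pair the count was 8 of 14 without a host and 10 of 16 on the host's strand, and with neither kind of letters it was 16 of 95 without a host and 16 of 148 on the host's strand. Thus peaks stood at the starts of snoRNA genes inside host genes as well as at free-standing ones.

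At snoRNA genes inside ribosomal protein genes the peaks lay elsewhere. Of 15 such members none was at the snoRNA 5′ end, and 11 lay in a protein-coding promoter, 4 of them in that of a ribosomal protein gene. F54E7.10 had a summit 247 bp upstream, in the promoters of rps-12 and ska-3, with 8.93 in replicate 3 and 3.97 in replicate 7. Y24D9A.9 had a summit 353 bp upstream, in the promoters of rpl-7A and set-21, with 8.44 in replicate 3 and 3.80 in replicate 7. All 4 matched members upstream of their snoRNA were lower in replicate 7 relative to replicate 3, and all 8 inside or beyond it were higher. C16A3.11, in rps-13, had 0.357 in replicate 3 and 4.63 in replicate 7, and Y43B11AR.7, in rps-4, had 1.05 in replicate 3 and 5.16 in replicate 7. Over the whole set of members, 72 of 205 lay in a protein-coding promoter (35.1%, interval 28.9 to 41.9), near the background of 37.6% of all ranked peaks.

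Most of the strongest members lacked both kinds of letters, but so did most members of the whole set. Members with neither kind were 41 of 89 at 5′ ends and 41 of 44 farther upstream. Inside the gene they were 17 of 22, and beyond its 3′ end 34 of 50. The 25 members of highest pooled signal, down to 1146, were 6 snRNA and 19 snoRNA members, and 12 were at a 5′ end. M163.13, an snRNA gene of 80 bases, had the highest, rank 13 of all peaks, with 33.2 in replicate 3 and 29.2 in replicate 7, a mean of 31.2 ± 2.85 (SD, n = 2). W05B2.8, an snRNA gene inside dhc-4, a dynein heavy chain gene, came next, with 33.0 in replicate 3 and 28.8 in replicate 7 and a summit 128 bp upstream. C34E11.20, a snoRNA gene, followed with 24.5 in replicate 3 and 22.4 in replicate 7, its summit 56 bp inside. F37F2.4 and F17C11.24, snoRNA genes with summits 223 and 278 bp upstream, averaged 16.9 ± 0.125 and 16.4 ± 1.89 (SD, n = 2). The log2 ratios of these 5 ran from -0.19 to 0.24. Next came K02F3.15 in zip-2, a bZIP factor gene, with 15.6 in replicate 3 and 11.2 in replicate 7. K08F11.8 and Y49E10.36, the second inside the histone gene his-72, were higher in replicate 7, while M7.15, C36E8.11 and C02F5.15, all in protein-coding promoters, were higher in replicate 3.

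**Figure D5:**
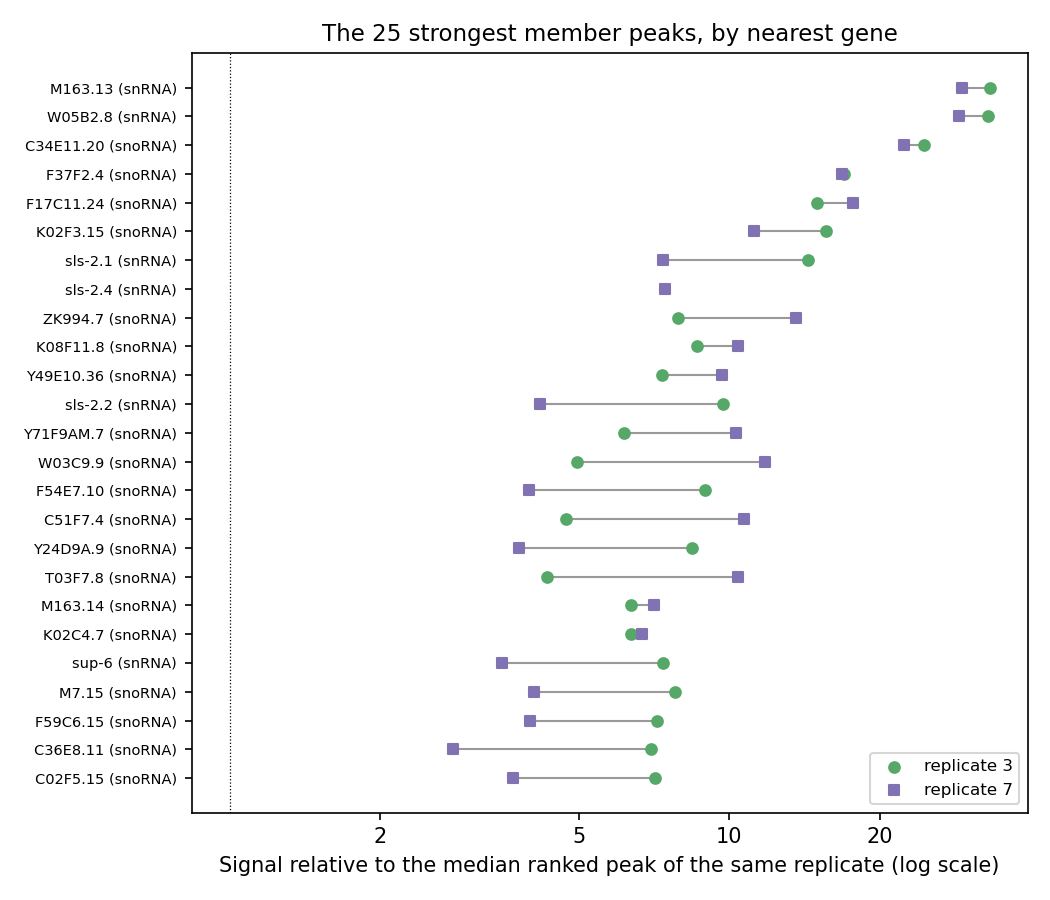
Relative signal (x axis, log scale) in replicate 3 (circles) and replicate 7 (squares) for the 25 members of highest pooled signal, named by nearest gene. The first 5, with means of 16.4 to 31.2, have log2 ratios of -0.19 to 0.24, and among the others some gaps are wider, to either side, while K02C4.7 (0.07) and M163.14 (0.16) are also narrow.

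The letters TTGCGAAA, close to the C/EBP site, had been picked out by an earlier search over these same peaks, so their share is a description. All 5 of the strongest members had them within 50 bp of the summit on either strand. Of the 25 strongest members 8 had it, and of all members 16 (7.80%, interval 4.86 to 12.3), against 10.1% of all ranked peaks and 0 of 410 flanking windows. It was at 1 of 29 PSE-like members at 5′ ends, M163.13, at 0 of 19 box pair members, which allows a share of up to 15.8% by a limit of 3 counts, and at 4 of 41 with neither. The palindromic C/EBP site TTGCGCAA was at 2 members, M163.13 and R08C7.19. The other C/EBP core forms TTGCGTAA, TTACGCAA and TTACGTAA were at none, and all 4 forms together were at 1.05% of ranked peaks. A missing match says only that these letters are not in the window. The sequences below reach 50 bases to each side of the summit for 4 of the 5 strongest members, on the strand that shows it, with TTGCGAAA in capitals.
M163.13 (chrX:14476732-14476832, plus strand): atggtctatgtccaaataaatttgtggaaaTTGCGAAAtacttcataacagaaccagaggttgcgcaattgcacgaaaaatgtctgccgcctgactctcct
W05B2.8 (chrIII:10989501-10989601, minus strand): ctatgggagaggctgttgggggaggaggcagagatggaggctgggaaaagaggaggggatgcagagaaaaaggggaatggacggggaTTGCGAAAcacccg
C34E11.20 (chrX:11792121-11792221, plus strand): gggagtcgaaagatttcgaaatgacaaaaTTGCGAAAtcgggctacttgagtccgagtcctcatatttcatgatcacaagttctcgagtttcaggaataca
F17C11.24 (chrV:10940857-10940957, plus strand): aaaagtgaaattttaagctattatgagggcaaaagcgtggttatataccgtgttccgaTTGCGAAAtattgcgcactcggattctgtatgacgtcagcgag

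In M163.13 the C/EBP variant, the palindrome and the PSE-like letters of the first sequence set lie within the same window. The remaining letters were at few members. The AP-1 sites TGACTCA and TGAGTCA were at 3 members, and 1.64% of ranked peaks had them. The E-box CACGTG was at 7 (3.41%, ranked peaks 4.99%), GAGAGAGA at 3 (1.46%, ranked peaks 4.09%), AGACGCAG at 8 (3.90%, ranked peaks 5.01%) and TATAAA at 18 (8.78%, ranked peaks 6.98%). TGATGCAA was at 1 member. GGTTCGA, the start of the tRNA B box, was at 7 members (3.41%), 6 of them at 5′ ends, beside 1.72% of ranked peaks and 28.6% of peaks near tRNA genes.

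Some members, mostly away from the 5′ ends, were second summits of a stronger peak, at a share near that of all ranked peaks. Within 250 bp of a stronger summit lay 23 members (11.2%, ranked peaks 9.58%), of which 13 were beyond the gene's 3′ end and 2 at the 5′ end. At sls-2.1 the second summit was 175 bp downstream of the 5′ end, with 2.38 in replicate 3 and 3.15 in replicate 7, below the main summit in both. Members at the limits of the rule were weak or far. The last member by rank, C17D12.18, was 9851st with a signal of 85.2, and the next peak that met the distances, at F42C5.12, ranked 10037 with 83.7. The farthest members were 484 bp from B0041.9 and from R166.10, and the nearest peak outside was 502 bp from C02F5.15.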

How the data were processed

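ChIP-seq peak lists from 2 biological replicates of 1 strain were analysed. Per the deposited text files, the authors made a ce11 list of 30000 peaks from each replicate, 1 from the pooled reads and an optimal list, each relative to 1 control file. The signal value and the −log10 q-value per peak are the authors' own, in the deposited narrowPeak column order, and signals were compared within a list alone. The peak caller and the threshold are not given in the sources used here, and the q-values entered no result.

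Genes were those of Ensembl release 115 on WBcel235, the sequence of ce11, and all peak ends lay within its chromosomes. RefSeq gave gene symbols and sequences. Coordinates are 1-based. Summits were matched within 100 bp. The 2 replicate lists shared 179 of 30000 exact summits, so the lists are not copies of each other. Genes named were nearest to the 25 strongest members, the 3 strongest of each snRNA group and snoRNA box class, members that are the only peak of a named gene, and those at each limit. Others were named after their values were seen: members given as examples of a letter class, at ribosomal protein genes, at the extremes of the replicate ratio or with a listed motif.

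The members and lists were chosen with earlier results of these data known. The PSE-like and box patterns, the 5′ end window and the replicate ratio were chosen after the data were seen. No test was made. The functions were tested on simulated data. Python 3.11.15, numpy 2.4.6, scipy 1.17.1 and biopython 1.88 were used. The ce10 lists were not used here.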

Additional observations from a re-analysis of the deposited data

How the results depend on the processing

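Depth is unknown, since the lists hold no counts, and with 2 replicates of 1 group every value is a description. Of 150 recomputed values, 141 stayed within set limits. These were 1.5 times a main count, the interval of a main share or the SD between replicates of a main value. Some values could not move, such as the 152 members within 200 bp when the rule used 200 or 1000 bp. For the signed distance the limit was wide, 29.0 bp, the SD between the 2 replicate lists. The count is thus no measure of stability. The median signed distance of summits, -24.0 bp, turned to 13.0 bp in the list of replicate 7 and was -28.0 bp in that of replicate 3; the cause was not tested. The median relative signal of 1.91 became 2.12 with 200 bp to the gene, 1.67 with 1000 bp, 1.48 over the top 5000 and 1.54 over the optimal list, where the median it is divided by is higher. Leaving out a replicate gave 1.86 to 1.96 for it, 190 to 237 members, 31 to 35 snRNA genes and 131 to 161 snoRNA genes. With 1000 bp to the gene 122 members lay in a protein-coding promoter. Chosen after the data were seen, the wider letters raised the box pair members at 5′ ends to 33, of which 27 of 30 matched were higher in replicate 7. The PSE-like members at 5′ ends numbered 19 with 50 bp on each side as the 5′ end, and 19 outside protein-coding promoters, by construction. The share of PSE-like members higher in replicate 7 ran from 8.33% to 23.7% over all these settings, and that of box pair members was lowest with the wider letters. No paired analysis was possible because there is 1 group. Peaks found in both replicates could not be counted with 1 replicate left out.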
